A study of Mus musculus with 69 samples.

Results

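The difference between SPRET and C57 bone marrow-derived macrophages (BMDMs) in their response to 6 hours of IL-4 was measured by RNA-seq. It was computed for each gene as the change of SPRET BMDMs from basal conditions minus the change of C57 BMDMs. It rests on 8 of the 69 samples of the series, all from a time course of IL-4 treatment. These are 2 libraries each of C57 BMDMs under basal conditions, C57 BMDMs after 6 hours of IL-4, SPRET BMDMs under basal conditions and SPRET BMDMs after 6 hours of IL-4. C57 stands for C57BL/6J, a classical inbred laboratory strain, and SPRET for SPRET/EiJ, an inbred strain of wild-derived Mus spretus. The mice were healthy young adult females, the marrow was grown into macrophages with M-CSF, and IL-4 was added at 20 ng/ml. No gene was altered in either strain. A strain and the cultures made from it cannot be told apart, and the p-values below measure only the spread between libraries of a group, which the study's methods call biological replicates. Sequencing gave the 8 libraries 5.70 M to 17.8 M tags each, with the fewest in replicate 2 of SPRET at 6 hours, and the table lists their expression in TPM, without read counts per gene.

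IL-4 is the cytokine of type 2 immunity. It binds a receptor made of IL-4Rα with a second chain, JAK kinases then phosphorylate STAT6, and STAT6 enters the nucleus and raises a set of genes that define alternatively activated macrophages. Among these are the arginase gene Arg1, the lectins Clec10a and Clec7a, the secreted proteins Chil3 and Retnla, chemokines that call eosinophils and T cells, and transcription factors such as EGR2 and IRF4 that act on later genes. IL-4 also lowers many genes of inflammation.

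The response differed between the strains in 290 genes. SPRET BMDMs had the larger response, more upward or less downward, in 164 of the 12088 genes tested (1.36%), and the smaller response, less upward or more downward, in 126 (1.04%). A gene was called when the difference exceeded 2-fold on the log2(TPM + 1) scale with an adjusted p under 0.05 from limma's interaction contrast. Without the threshold on size, 707 genes passed above 0 and 640 below, and 439 and 378 did when the 8 libraries alone set the spread. The median difference over all genes tested was 0.0173. Since TPM holds each library to a fixed scale, a shift of all genes together could not be seen. Each strain's own response was called on the same scale. IL-4 induced 340 genes (2.81%) and repressed 212 (1.75%) in SPRET, against 188 (1.56%) and 69 (0.571%) in C57. The counts depended on the pseudocount, and with 5 TPM instead of 1 TPM the 2 classes of differing genes held 83 and 68 genes.

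**Figure D1:**
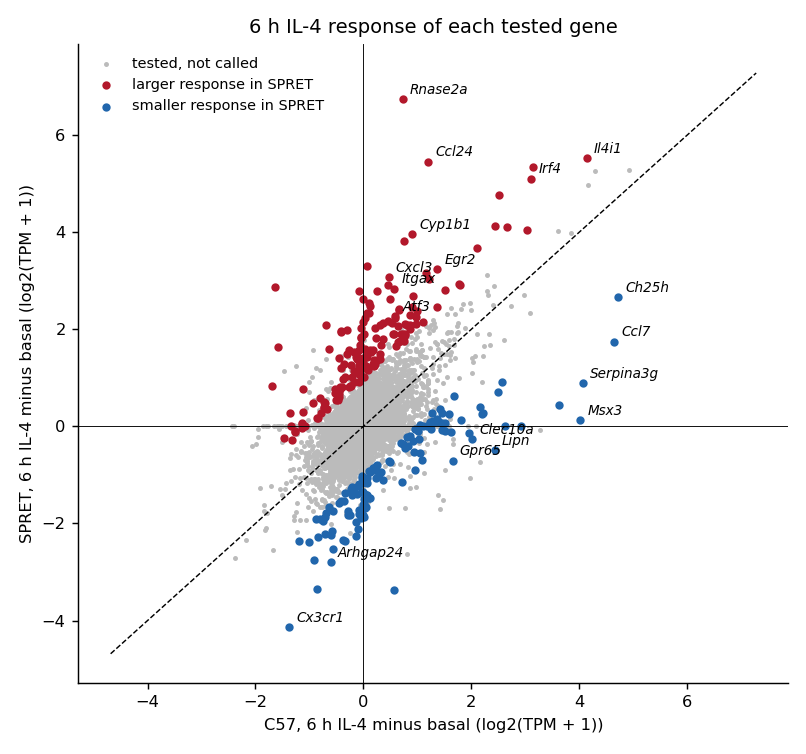
The plot shows the 6 h response of each of the 12088 genes tested, as the mean difference in log2(TPM + 1) between 6 h IL-4 and basal libraries, for C57 on the horizontal and SPRET on the vertical axis. Red points are the 164 genes with a larger and blue points the 126 genes with a smaller response in SPRET, and the dashed line marks equal responses. Rnase2a and Ccl24 lie near the vertical axis, with a response mostly in SPRET, and Msx3, Serpina3g and Ccl7 lie far to the right of the line.

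Most of the 164 genes had a called response in SPRET and none in C57. A total of 106 of them were called induced in SPRET with no call in C57, 17 were induced in both strains, 13 were repressed in C57 only, and 27 had no call in either strain on its own. The last of them, Snora28, was called repressed in C57 and induced in SPRET. This small nucleolar RNA gene lies within Eif5 on the same strand, and its level was 3.06 and 1.21 TPM in basal C57, 0 in both C57 libraries at 6 hours and both basal SPRET libraries, and 1.84 and 2.41 TPM in SPRET at 6 hours. Of the 126 genes with a smaller response, 61 were called repressed in SPRET only, 39 induced in C57 only, 3 repressed in both strains, 2 induced in both (Ccl7 and Ch25h), and 21 had no call in either. A call in 1 strain and not in the other rests on a threshold, and the tested quantity is the difference itself.

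Of 10 listed macrophage markers, 9 were above 9 TPM in all 8 libraries, among them the M-CSF receptor gene Csf1r (753 to 822 TPM in C57, 1389 to 1793 TPM in SPRET) and Cd68 (2419 to 2790 TPM over both strains). The exception was Fcgr1, the high-affinity IgG receptor gene, named after its values were seen, at 16.2 to 27.96 TPM in C57 and 0.036 to 0.244 TPM in SPRET. The 10 markers summed, with Lyz2 the largest part, to between 33950 and 34360 TPM in the basal C57 libraries and between 54231 and 56789 TPM in basal SPRET, and after IL-4 to between 27719 and 29599 TPM in C57 and between 46643 and 48365 TPM in SPRET. None of the 10 was called in the difference of the responses, where 1.36% of all genes had a larger and 1.04% a smaller response. Markers of other cells were far lower. The highest sum among them, of 10 neutrophil markers, was between 54.9 and 96.2 TPM with Ly6g and Ngp at 0 in all 8 libraries. Of the other 5 lists, the mast cell and basophil markers summed to at most 1.15 TPM in C57 and to between 27.6 and 35.3 TPM in SPRET. Most of the SPRET sum was Mcpt8 (13.3 to 20.2 TPM) and Prss34 (11.8 to 12.9 TPM), which basophils express. In C57 these 2 were at most 0.213 and 0.602 TPM, and Mcpt4 was at 0 throughout. The stromal markers summed to at most 9.42 TPM in C57 and 25.2 TPM in SPRET, with Lum and Pdgfra at 0. Most of that SPRET sum was Pdgfrb, at 20.7 to 23.2 TPM against at most 0.461 TPM in C57. Dendritic cell markers summed to between 3.38 and 4.53 TPM in basal SPRET and between 6.75 and 7.08 TPM at 6 hours, against at most 0.900 TPM in C57. Lymphocyte markers summed to at most 3.95 TPM in C57 and 7.53 TPM in SPRET, and erythroid and megakaryocyte markers to at most 4.70 TPM in any library. Most of these markers of other cells were too low to be tested, and each list had only 2 or 3 tested members. Of the tested ones, 2 were called, both with a larger response in SPRET (1.36% of all genes). They were Zbtb46, 1 of 3 tested dendritic cell markers (1.12), and Klrb1c of NK cells, 1 of 2 tested lymphocyte markers (1.04). Both calls were lost with a pseudocount of 5 TPM (0.56 and 0.39). Zbtb46 kept its call in 2 of the 8 sets that leave out a library, those without C57 6 h replicate 2 or SPRET basal replicate 2, and Klrb1c lost it without C57 basal replicate 1, C57 6 h replicate 2 or SPRET basal replicate 1, at 0.88 to 0.99. Their part in the results was not tested. In such bulk libraries, fewer cells of a type and less RNA per cell cannot be told apart.

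Among genes of at least 10 TPM, Rnase2a had the largest difference. It encodes a ribonuclease of the eosinophil-associated family (chromosome 14, 51255262 to 51256112, mm10). Its level was 1.07 and 0.424 TPM in basal C57, 1.11 and 2.84 TPM in C57 at 6 hours, 0.183 and 1.49 TPM in basal SPRET and 194 and 169.8 TPM in SPRET at 6 hours. The strains thus started from levels that overlapped and parted only after IL-4. The SPRET response exceeded that of C57 by 6.00 on the log2 scale (standard error 0.50, adjusted p = 1.2e-05). Reads shared with other genes of this family could affect its level, since the handling of reads that map to several places is not given in the sources used here. Ccl24, or eotaxin-2, recruits eosinophils through CCR3 (chromosome 5, 135569937 to 135573043). It went from 0.072 and 0.227 TPM to 1.48 and 1.79 TPM in C57 and from 0.294 and 0.433 TPM to 66.5 and 51.2 TPM in SPRET. Both strains induced it, with the larger difference in SPRET by 4.25 (standard error 0.21, adjusted p = 1.8e-07).

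Cyp1b1, a cytochrome P450 that oxidises steroids and xenobiotics (chromosome 17, 79706953 to 79715041), was 12.8 and 11.4 TPM in basal C57 and 23.3 and 23.4 TPM at 6 hours. In SPRET it was 5.72 and 7.51 TPM under basal conditions and 120.04 and 114 TPM at 6 hours. SPRET therefore began below C57 and ended above it in all libraries, and the responses differed by 3.07 (standard error 0.17, adjusted p = 3.4e-07). Serpinb2, which encodes plasminogen activator inhibitor 2 (chromosome 1, 107511510 to 107525600), stayed between 0.371 and 1.08 TPM in the 4 C57 libraries. It went from 2.44 and 1.7 TPM to 20.8 and 19.5 TPM in SPRET, a difference in response of 2.88 (standard error 0.27, adjusted p = 2.7e-05). Ifi202b, an interferon-inducible gene of the p200 family (chromosome 1, 173962569 to 173982844), was listed at 0 in all 4 C57 libraries, so it has no fold there. In SPRET it rose from 10.5 and 8.003 TPM to 65.05 and 57.8 TPM. For this gene, the difference of 2.61 is the SPRET response itself.

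Serpina3i and Serpina3g lie in 1 cluster of serine protease inhibitor genes on chromosome 12, and they differed in opposite directions. The called genes of this cluster also include Serpina3f and Serpina3h, both with a larger response in SPRET. Serpina3i was at most 0.174 TPM in C57, and went from 1.04 and 0.679 TPM to 19.2 and 15.6 TPM in SPRET (difference 3.24, standard error 0.20, adjusted p = 1.1e-06). Serpina3g went from 0.183 and 0.651 TPM to 20.9 and 23.7 TPM in C57, and in SPRET from 0 in both libraries to 1.37 and 0.432 TPM. Its difference was -3.18 (standard error 0.39, adjusted p = 2.0e-04), and with a pseudocount of 0.1 TPM the adjusted p was 0.059. The genes of this cluster are close copies, so their reads may be divided unevenly. Serpina3g overlaps Serpina3f on the same strand, and these 2 were called in opposite directions. BC035044 (chromosome 6, 128848044 to 128891124) was at most 0.543 TPM in C57 and rose from 15.1 and 15.2 TPM to 111 and 109 TPM in SPRET (difference 2.53). It overlaps Clec2i on the opposite strand, and whether the counting used strand is not given. Gm15056 (chromosome 8, 20900606 to 20901973), a predicted gene, went from 0 and 0.469 TPM to 0.92 and 1.14 TPM in C57 and from 0 and 1.2 TPM to 17.1 and 23.4 TPM in SPRET (difference 3.08, adjusted p = 0.0014, and 0.16 with a pseudocount of 0.1 TPM).

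Of the 20 genes with the largest differences, these were the 3 whose promoter holds the bases TTC and GAA with 4 bases between them, the arrangement STAT6 binds, on either strand. The 120 bases before the RefSeq start of each are shown because all 3 had a rise in SPRET, with that stretch in capitals. They are RefSeq sequences of GRCm38, the reference of C57, from chr12:104263002-104263121 on the plus strand, chr6:128891125-128891244 on the minus strand and chr8:20902457-20902576 on the minus strand. For Gm15056 the RefSeq start lies upstream of the gene bounds used for its level, which end at 20901973.
Serpina3i: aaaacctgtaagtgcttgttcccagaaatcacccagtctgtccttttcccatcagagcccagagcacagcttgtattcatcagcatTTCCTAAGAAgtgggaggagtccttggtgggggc
BC035044: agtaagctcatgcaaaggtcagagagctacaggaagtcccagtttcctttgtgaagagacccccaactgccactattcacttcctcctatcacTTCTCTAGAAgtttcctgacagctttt
Gm15056: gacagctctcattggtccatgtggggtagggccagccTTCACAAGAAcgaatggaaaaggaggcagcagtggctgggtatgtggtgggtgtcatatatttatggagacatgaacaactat
The stretch began 34, 27 and 83 bases before the RefSeq start. It was found in 15 of the 134 genes with a larger response that have a promoter in the table (11.2%), in 6 of 97 with a smaller response (6.19%), in 6.57% of the 9143 genes tested and in 8.01% of all 27025 genes. The EGR motif GCGTGGGCG, on either strand, was in 3 of 134, 3 of 97, 1.47% and 0.707% in the same order. These windows span 250 bases before to 50 after the start, they do not hold the SPRET sequence, and a match is a description of letters and not of binding.

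Of the 22 chemokine genes tested, 8 had a larger and 3 a smaller response in SPRET, where 1.36% and 1.04% of all genes did. The median difference of the 22 was 0.29, against 0.0173 for all genes tested. The listed ligands of CXCR2, the chemokine receptor of neutrophils, were Cxcl1, Cxcl2, Cxcl3 and Ppbp, and all 4 had a larger response. Cxcl3 (chromosome 5, 90786101 to 90788093) was 33.4 and 29.6 TPM in basal C57 and 48.1 and 40.04 TPM at 6 hours, and 50.8 and 63.4 TPM in basal SPRET and 482 and 486 TPM at 6 hours (difference 2.60, standard error 0.25, adjusted p = 2.9e-05). Cxcl2 went from 27.99 and 27.7 TPM to 20.5 and 20.9 TPM in C57 and from 22.4 and 25.998 TPM to 107 and 87.4 TPM in SPRET (difference 2.37). Cxcl1 went from 6.43 and 5.25 TPM to 3.73 and 3.003 TPM in C57 and from 11.9 and 12.5 TPM to 39.2 and 38.1 TPM in SPRET (difference 2.24). The C57 libraries at 6 hours lay below the basal ones for Cxcl1 and Cxcl2, while those of SPRET lay above. Ppbp, a chemokine of platelets, was 8.28 and 10.3 TPM in basal C57 and 5.47 and 8.87 TPM at 6 hours, and 0.35 and 0.689 TPM and 3.69 and 1.88 TPM in SPRET. Its call (difference 1.64, adjusted p = 0.019) was lost when any 1 of 4 libraries was left out. These were C57 basal replicate 2, C57 6 h replicate 1, SPRET basal replicate 1 and SPRET 6 h replicate 1, with adjusted p between 0.073 and 0.076. It was also lost with a pseudocount of 5 TPM (0.73), without a filter on low values (adjusted p = 0.0504) and with the 8 libraries alone (0.063).

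The ligands of CCR4, Ccl17 and Ccl22, which attract type 2 T cells, also had a larger response in SPRET. Ccl22 (chromosome 8, 94745684 to 94751388) stayed under 1 TPM in the basal and 6 h C57 libraries, with 0.632 and 0.686 TPM at 6 hours. In SPRET it rose from 0.836 and 1.08 TPM to 13.6 and 13.8 TPM (difference 2.45, standard error 0.17, adjusted p = 2.9e-06). At 24 hours of the time course it was 8.48 and 8.94 TPM in C57 and 148 and 130 TPM in SPRET. Ccl17 was listed at 0 in both strains under basal conditions and reached 1.95 and 4.55 TPM in SPRET and 0 and 0.348 TPM in C57. Its difference was 1.80, with 3.87 at a pseudocount of 0.1 TPM, and the call was lost at 0.66 with 5 TPM and with the 8 libraries alone (adjusted p = 0.052). Ccl9, a ligand of CCR1, started lower in SPRET and nearly reached the C57 level, going from 19.1 and 18.96 TPM to 131 and 125 TPM against 83.2 and 81.2 TPM to 155 and 157 TPM in C57 (difference 1.78).

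Of the ligands of CCR2, which draw monocytes, Ccl7 and Ccl12 had a smaller response in SPRET and Ccl2 was not called. Ccl7 (chromosome 11, 82045712 to 82047523) rose from 8.57 and 14.3 TPM to 309 and 294 TPM in C57 and from 0 and 0.817 TPM to 3.06 and 4.01 TPM in SPRET. The difference was -2.90 (standard error 0.41, adjusted p = 5.6e-04), but with a pseudocount of 0.1 TPM it was -1.18 with an adjusted p of 0.56. The lowest basal SPRET library was listed at 0. Ccl12 (chromosome 11, 82101845 to 82103399) went from 1.39 and 2.19 TPM to 32.8 and 32.99 TPM in C57, and in SPRET it was listed at 0 in both basal libraries and at 0.831 and 0 TPM at 6 hours. Its difference of -3.18 (adjusted p = 1.7e-04) had an adjusted p of 0.27 with a pseudocount of 0.1 TPM. Ccl2 rose in both strains, from 24.4 and 33.97 TPM to 254 and 253 TPM in C57 and from 0.942 and 1.5 TPM to 7.71 and 13.4 TPM in SPRET. Its difference of -0.75 was not called (adjusted p = 0.16), and its size depended on the setting. It was -1.63 and past the threshold with a pseudocount of 5 TPM but -0.14 with 0.1 TPM, and -1.11 and past it without SPRET 6 h replicate 2 but -0.39 without SPRET 6 h replicate 1. The remaining called member, Cxcl14, was at most 0.252 TPM in C57 and fell from 15.95 and 17.3 TPM to 7.09 and 6.52 TPM in SPRET (difference -1.16, with no call at a pseudocount of 0.1 TPM, -1.24, or 5 TPM, -0.87). Ccl3, Ccl4 and Ccl5 were not called, with differences of -0.72, 0.018 and -0.10.

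**Figure D2:**
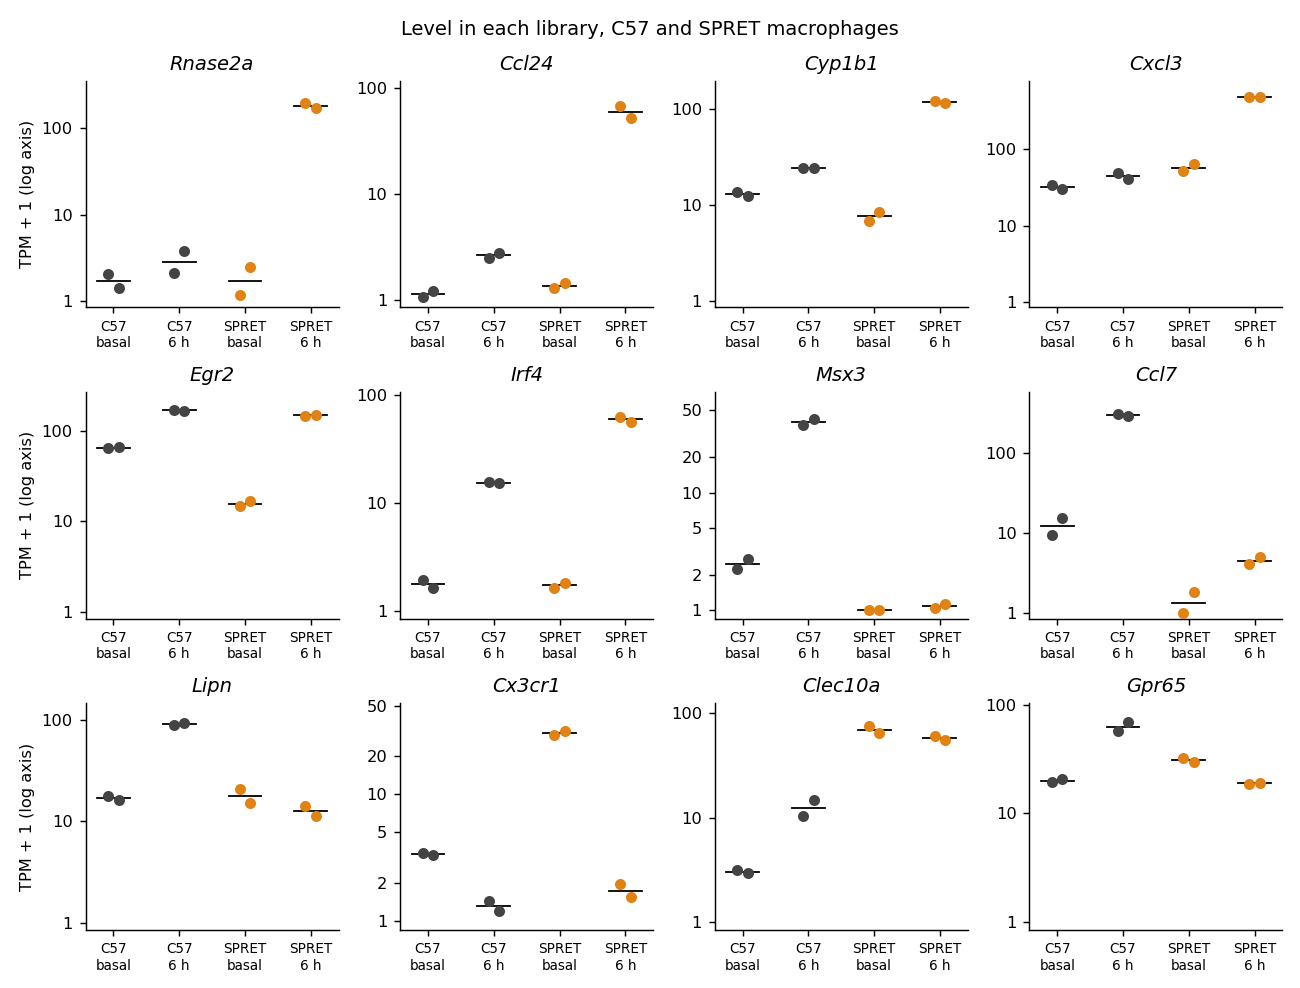
Each panel gives the level of 1 gene in the 8 libraries as TPM + 1 on a log axis, with C57 in grey, SPRET in orange and a bar at the mean of the log values of each pair. The upper 6 genes had a larger response in SPRET and the lower 6 a smaller one. Rnase2a, Ccl24 and Irf4 start at like levels and part at 6 h, Egr2 starts lower in SPRET and nearly meets the C57 level, and Cx3cr1 starts higher in SPRET and meets it.

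Of the 13 tested chemokine and formyl peptide receptors, none had a larger response in SPRET (1.36% of all genes) and 4 had a smaller one (1.04%), and their median difference was -0.60. Cx3cr1, the fractalkine receptor (chromosome 9, 120048683 to 120068296), fell from 2.45 and 2.33 TPM to 0.431 and 0.189 TPM in C57 and from 28.4 and 30.7 TPM to 0.942 and 0.541 TPM in SPRET (difference -2.76, standard error 0.20, adjusted p = 4.7e-06). It was thus lowered in both strains to below 1 TPM, from a basal level that was higher in SPRET. The complement receptor C5ar1 fell from 108 and 109.6 TPM to 75.6 and 67.8 TPM in C57 and from 60.4 and 61.6 TPM to 12.03 and 12.2 TPM in SPRET (difference -1.64, adjusted p = 7.6e-06). Ccr2, the receptor that brings monocytes into tissue, was 1.00000 and 0.731 TPM in basal C57 and 0.69 and 1.09 TPM at 6 hours, and went from 5.86 and 5.41 TPM to 0.985 and 1.46 TPM in SPRET (difference -1.60, and -0.78 with a pseudocount of 5 TPM). Fpr2, a receptor for formylated peptides, had a difference of -1.17 (adjusted p = 0.047) that lost its call in 7 of the 8 sets that leave out a library, with values from -1.34 to -0.82, the exception being the set without SPRET 6 h replicate 1. The call of Fpr2 was also lost with the replicate number as a block, with other priors and with the 8 libraries alone. The same held without a filter on low values and with a pseudocount of 5 TPM (-0.39). Ccr1 was not called (-0.84), though it was at -1.01 without SPRET 6 h replicate 1. For Cx3cr1 and Ccr2, the higher basal level of SPRET was not seen in the 5-strain libraries described below, where basal SPRET minus C57 was -0.44 and -1.51, against 3.17 and 1.83 here.

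None of the 19 tested genes of the IL-4 receptor, JAK and STAT6 list was called, where 1.36% of all genes had a larger and 1.04% a smaller response. At those shares, a list of this size would hold few calls or none. The median difference of the 19 was 0.12. Stat6 was 102 and 102 TPM and 97.7 and 98.01 TPM in C57 and 124 and 135 TPM and 122 and 115 TPM in SPRET, before and after IL-4 (difference -0.064, standard error 0.078, adjusted p = 0.69). Il4ra, the ligand-binding chain, passed the adjusted p at a smaller size. It was 32.1 and 34.3 TPM before and 44.4 and 42.5 TPM after IL-4 in C57, and 34.2 and 35.9 TPM and 25.4 and 27.7 TPM in SPRET, so that it rose in C57 and fell in SPRET (difference -0.76, adjusted p = 3.5e-04). The common gamma chain Il2rg was not called (-0.06), and Il13ra1 had -0.55 (adjusted p = 0.012). Of 20 tested feedback inhibitors, 1 had a larger response in SPRET (1.36% of all genes) and none a smaller one (1.04%). This was the MAP kinase phosphatase gene Dusp4 (difference 1.38). It went from 77.7 and 81.3 TPM to 167 and 150.4 TPM in C57 and from 20.4 and 22.6 TPM to 121 and 109.6 TPM in SPRET. Cish, which STAT factors induce to restrain their own receptor, went from 1.86 and 1.64 TPM to 48.7 and 47.3 TPM in C57 and from 1.88 and 2.25 TPM to 99.3 and 90.9 TPM in SPRET. Its difference of 0.82 (adjusted p = 2.8e-04) passed the test at under 2-fold. Socs1 and Socs2 had 0.98 and -0.012 with no call, and Socs3 0.73 under 2-fold. The sign for Socs2 turned with the pseudocount, from -1.72, past the threshold, at 0.1 TPM to 0.68 at 5 TPM. For Socs1, the value was 1.52, past the threshold, without C57 basal replicate 1 and 0.44 without C57 basal replicate 2.

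Of 25 transcription factors that IL-4 is known to engage, 5 had a larger response in SPRET, against 1.36% of all genes, and 2 a smaller one, against 1.04%, with a median difference of 0.18. Egr2 (chromosome 10, 67537869 to 67542188), a zinc finger factor that IL-4 induces, was 63.2 and 64.9 TPM in basal C57 and 168 and 165 TPM at 6 hours. In SPRET it was 13.8 and 15.8 TPM under basal conditions and 145 and 149 TPM at 6 hours. The larger response of SPRET (1.87, standard error 0.085, adjusted p = 1.3e-07) lay on the basal side, since SPRET minus C57 was -2.05 on the log2 scale before IL-4 and -0.18 at 6 hours. Irf4, a factor of alternative activation (chromosome 13, 30749233 to 30766981), had basal levels that overlapped, 0.949 and 0.643 TPM in C57 and 0.636 and 0.82 TPM in SPRET. It reached 14.7 and 14.1 TPM in C57 and 61.7 and 55.1 TPM in SPRET (difference 2.00, standard error 0.16, adjusted p = 9.7e-06). Batf3, a partner of IRF4, went from 3.51 and 4.12 TPM to 24.5 and 25.3 TPM in C57 and from 1.78 and 0.787 TPM to 36.4 and 38.9 TPM in SPRET (difference 1.69). Its neighbour Atf3, a stress-induced factor, went from 218 and 220.004 TPM to 324 and 336 TPM in C57 and from 38.3 and 36.99 TPM to 183 and 188 TPM in SPRET (difference 1.68). For Atf3 the SPRET libraries stayed below those of C57 at both times. Cebpa, a myeloid lineage factor, was between 86.3 and 96.3 TPM in the basal and 6 h C57 libraries. In SPRET it went from 44.99 and 40.4 TPM to 115 and 117 TPM (difference 1.35).

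The 2 factors with a smaller response were Maf and Egr1. Maf was between 20.6 and 26.1 TPM in C57 and fell from 53.2 and 44.4 TPM to 14.2 and 12.2 TPM in SPRET (difference -1.73, adjusted p = 5.8e-05). Egr1 went from 0.21 and 0.237 TPM to 1.7 and 3.12 TPM in C57 and from 1.64 and 1.18 TPM to 1.44 and 1.13 TPM in SPRET. Its call (difference -1.52, adjusted p = 0.023) was lost in 5 of the 8 sets that leave out a library, with adjusted p from 0.063 to 0.090. The call held without C57 6 h replicate 1, SPRET basal replicate 2 or SPRET 6 h replicate 1, and with a pseudocount of 5 TPM the value was -0.53. Egr3 was not called (0.43). Among the 15 tested AP-1 factors, 2 had a larger response in SPRET (1.36% of all genes), Atf3 and Batf3. A smaller one (1.04%) was seen in 2, Fos and Fosl2, and the median difference of the 15 was 0.17. Fos was between 13.7 and 16.0 TPM in the basal and 6 h C57 libraries and fell from 8.61 and 11.4 TPM to 2.59 and 1.53 TPM in SPRET (difference -1.88). Fosl2 rose from 15.4 and 14.8 TPM to 29.4 and 29.2 TPM in C57 and was 30.5 and 35.9 TPM before and 26.99 and 26.6 TPM after IL-4 in SPRET (difference -1.21).

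Of 25 effectors of alternative activation, 7 had a larger response in SPRET and 3 a smaller one, beside 1.36% and 1.04% of all genes, with a median difference of 0.13. Besides Rnase2a, the first group held Itgax, Mmp12, Retnla, Il4i1, Vegfa and Clec7a. Itgax, the CD11c integrin, went from 82.2 and 76.4 TPM to 118 and 118 TPM in C57 and from 6.99 and 7.17 TPM to 62.2 and 51.4 TPM in SPRET (difference 2.26, standard error 0.14, adjusted p = 1.3e-06). Mmp12, the macrophage elastase, was between 1804 and 1978 TPM in the C57 libraries without a call, and rose from 27.4 and 23.2 TPM to 102 and 85.6 TPM in SPRET (difference 1.88). The gene thus stayed far below its C57 level in SPRET after IL-4. Clec7a, the beta-glucan receptor dectin-1, rose in both strains, from 266 and 259 TPM to 835 and 955 TPM in C57 and from 62.03 and 61.6 TPM to 507 and 452 TPM in SPRET (difference 1.17). Il4i1, an oxidase of aromatic amino acids, went from 2.08 and 2.21 TPM to 59.1 and 49.9 TPM in C57 and from 8.83 and 9.88 TPM to 487 and 461 TPM in SPRET (difference 1.39), and it shares bases with Gm21948 on the same strand. Retnla was 2.95 and 2.95 TPM and 4.01 and 4.18 TPM in C57, and in SPRET it was listed at 0 in both basal libraries and at 4.47 and 2.45 TPM at 6 hours. Its difference was 1.75, and 0.55 with no call at a pseudocount of 5 TPM. Vegfa fell from 40.9 and 39.2 TPM to 17.95 and 17.5 TPM in C57 and was 7.6 and 5.57 TPM and 7.12 and 6.5 TPM in SPRET (difference 1.19, and 0.99 without SPRET basal replicate 2).

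Clec10a, Ch25h and Chil3 had the smaller response in SPRET. Clec10a, the galactose-binding lectin CD301 (chromosome 11, 70166623 to 70170836), rose from 2.17 and 1.96 TPM to 9.34 and 13.7 TPM in C57, and was 74.8 and 63.6 TPM before and 59.98 and 54.4 TPM after IL-4 in SPRET. SPRET libraries thus lay above those of C57 at both times, and the difference in response was -2.28 (standard error 0.21, adjusted p = 2.3e-05). Ch25h, which makes 25-hydroxycholesterol, rose from 1.43 and 1.19 TPM to 59.2 and 59.7 TPM in C57 and from 2.14 and 3.64 TPM to 24.3 and 21.9 TPM in SPRET (difference -2.06). Chil3, the chitinase-like protein Ym1, rose from 101 and 87.05 TPM to 276 and 292 TPM in C57 and was 1.4 and 1.64 TPM and 1.59 and 2.47 TPM in SPRET. Its difference of -1.34 (adjusted p = 0.0095) had an adjusted p of 0.078 with a pseudocount of 0.1 TPM.

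In the arginine and polyamine list, 2 of 22 genes had a larger response (1.36% of all genes) and none a smaller one (1.04%). Slc7a2, the cationic amino acid transporter CAT2 (chromosome 8, 40862367 to 40922070), rose from 25.9 and 23.5 TPM to 207 and 210.1 TPM in C57 and from 66.2 and 73.3 TPM to 1179.7 and 1152 TPM in SPRET. Its difference of 1.02 (standard error 0.09, adjusted p = 1.8e-05) sat at the 2-fold threshold, and it lost the call in 3 of the 8 sets that leave out a library, at 0.94 to 0.999 (without C57 basal replicate 1, SPRET basal replicate 1 or SPRET 6 h replicate 1). It lost it also with median-ratio scaling (0.996) and with a pseudocount of 0.1 TPM (0.989). Slc7a11, the cystine transporter, fell from 59.6 and 50.6 TPM to 40.1 and 39.6 TPM in C57 and rose from 6.88 and 10.02 TPM to 13.5 and 15.7 TPM in SPRET (difference 1.19, and 0.95 without SPRET basal replicate 1 or 0.97 with a pseudocount of 5 TPM). Arg1 (chromosome 10, 24915207 to 24927470) was 77.001 and 90.8 TPM in basal C57 and 2553 and 2592 TPM at 6 hours, and 2.66 and 4.49 TPM in basal SPRET and 178 and 166 TPM at 6 hours. The level of SPRET lay far below that of C57 at both times, and the responses were 4.93 in C57 and 5.27 in SPRET. Their difference was not called (0.34, standard error 0.26, adjusted p = 0.48), and it ranged from -0.49 with a pseudocount of 5 TPM to 0.65 with 0.1 TPM.

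Several genes were called induced in C57 and not in SPRET. The homeobox gene Msx3 (chromosome 7, 140046157 to 140049088) rose from 1.25 and 1.72 TPM to 36.6 and 41.2 TPM in C57. In SPRET it was listed at 0 in both basal libraries and at 0.048 and 0.127 TPM at 6 hours (difference -3.89, standard error 0.20, adjusted p = 2.2e-07). Lipn, of the acid lipase family (chromosome 19, 34067358 to 34084918), had basal levels that overlapped, 16.9 and 15.1 TPM in C57 and 20.1 and 14.2 TPM in SPRET. At 6 hours it was 87.8 and 93.2 TPM in C57 and 13.3 and 10.3 TPM in SPRET, so that the libraries parted by a rise in C57 (difference -2.92, standard error 0.24, adjusted p = 1.1e-05). The proton-sensing receptor Gpr65 (chromosome 12, 98268635 to 98276722) rose from 18.4 and 19.7 TPM to 56.6 and 67.96 TPM in C57 and fell from 31.04 and 28.7 TPM to 17.7 and 17.98 TPM in SPRET (difference -2.36, standard error 0.11, adjusted p = 1.5e-07). A further pair of genes of this kind was chosen after their values were seen. Gatm, of creatine synthesis, rose from 9.52 and 10.4 TPM to 48.2 and 50.8 TPM in C57 and was 39.7 and 42.9 TPM and 47.8 and 50.5 TPM in SPRET, where it already stood near the C57 level after IL-4 (difference -1.96). Olfm1 rose from 19.7 and 18.04 TPM to 77.6 and 75.001 TPM in C57 and was 54.004 and 58.2 TPM and 49.3 and 51.9 TPM in SPRET (difference -2.11).

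Other genes fell further in SPRET than in C57. F630028O10Rik (chromosome X, 96239926 to 96243642), within which the annotation places Mir223, went from 3.98 and 4.04 TPM to 1.85 and 1.66 TPM in C57 and from 19.9 and 16.8 TPM to 1.07 and 0.731 TPM in SPRET (difference -2.49, adjusted p = 4.3e-05). Arhgap24, which restrains the GTPase Rac (chromosome 5, 102481391 to 102897937), went from 14.5 and 13.8 TPM to 9.53 and 8.41 TPM in C57 and from 22.2 and 20.2 TPM to 2.26 and 2.12 TPM in SPRET (difference -2.20, adjusted p = 7.1e-06). Syndecan 1 (Sdc1) and the corepressor gene Tle3, both chosen after their values were seen, had basal levels near those of C57. Sdc1 went from 122 and 119.7 TPM to 86.1 and 77.9 TPM in C57 and from 109 and 109.6 TPM to 18.02 and 18.3 TPM in SPRET (difference -1.97). Tle3 went from 19.7 and 22.2 TPM to 18.8 and 14.3 TPM in C57 and from 21.6 and 21.4 TPM to 3.25 and 3.45 TPM in SPRET (difference -2.04).

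Of the inflammatory and NF-kB genes, 1 of 31 tested had a larger response in SPRET (1.36% of all genes) and 3 a smaller one (1.04%). Nlrp3, the inflammasome sensor, fell in both strains, from 26.1 and 23.1 TPM to 12.02 and 11.3 TPM in C57 and from 27.9 and 30.5 TPM to 5.14 and 4.41 TPM in SPRET (difference -1.38, and -0.98 with a pseudocount of 5 TPM). Hp, which encodes haptoglobin, went from 170.2 and 159.8 TPM to 129 and 113 TPM in C57 and from 104 and 116 TPM to 36.4 and 35.5 TPM in SPRET (difference -1.13). Ptgs2, or cyclooxygenase 2, rose from 3.35 and 3.47 TPM to 9.55 and 9.83 TPM in C57 and stayed at 0.424 and 0.479 TPM and 0.62 and 0.912 TPM in SPRET, and its difference of -1.0001 sat at the threshold. It lost the call without C57 basal replicate 1, C57 6 h replicate 2, SPRET basal replicate 2 or SPRET 6 h replicate 1, at -0.98 to -0.88, and at either other pseudocount, with -0.85 at 0.1 TPM and -0.72 at 5 TPM. Nfkbiz, which encodes a regulator of NF-kB, fell from 12.4 and 12.9 TPM to 4.44 and 4.56 TPM in C57 and was 10.7 and 11.2 TPM and 7.83 and 9.79 TPM in SPRET (difference 1.02). It was 0.999 without C57 basal replicate 2, 0.99 without SPRET basal replicate 1, 0.88 without SPRET 6 h replicate 2 and 0.69 with a pseudocount of 5 TPM, each under the threshold. Tnf, Il1b and Il1a were not called (0.76, -0.88 and -0.042), though Il1b was past the threshold at -1.12 without C57 6 h replicate 1, -1.08 without C57 basal replicate 1 and -1.11 with a pseudocount of 5 TPM.

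Of 40 interferon-stimulated genes, Irf1 and Ifi47 were called, both with a larger response in SPRET, a class that held 1.36% of all genes. Irf1 went from 38.95 and 42.3 TPM to 48.8 and 52.3 TPM in C57 and from 36.7 and 35.6 TPM to 102 and 104 TPM in SPRET (difference 1.18). Ifi47, a GTPase gene that overlaps Olfr56, went from 40.1 and 40.7 TPM to 43.3 and 44.98 TPM in C57 and from 8.61 and 9.31 TPM to 26.6 and 30.8 TPM in SPRET (difference 1.45). Ifit1, Ifit2, Ifit3 and Isg15 had differences between 0.67 and 0.88 and were not called, though Ifit1 was at 1.16 without SPRET 6 h replicate 1 and at 0.53 without SPRET 6 h replicate 2. In the remaining lists, 1 gene each was called, a count too low to set apart from the shares of all genes (1.36% larger and 1.04% smaller). The costimulatory gene Cd80 had a smaller response (-1.26, and -0.94 with a pseudocount of 5 TPM) among 18 MHC class II and costimulation genes, and H2-Aa and H2-Ab1 had -0.11 and -0.10. The cell cycle inhibitor Cdkn1a had a larger response (1.29) among 32 genes of the cell cycle, where Mki67 and Top2a had 0.13 and 0.10. Vegfa was the called member of 25 glycolysis and HIF genes, and Ch25h that of 32 cholesterol and LXR genes, where Hmgcs1 passed the adjusted p at 0.42. Of the other genes that the study names, Ripk2 had a difference of -0.24 (adjusted p = 0.22) and Btbd11, at 0 in all 4 SPRET libraries and at most 0.995 TPM in C57, of -0.75 (0.048).

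Some called genes lay side by side. When called genes within 200 kb of each other were joined, 10 runs held at least 3. On chromosome 5, from 90768518 to 90905938, all 4 called genes were the CXCR2 ligands Ppbp, Cxcl3, Cxcl1 and Cxcl2. On chromosome 14, from 50944303 to 51256112, Pnp, Ang, Rnase4, Rnase6 and Rnase2a all had a larger response. Rnase4 went from 27.7 and 26.6 TPM to 35.6 and 41.3 TPM in C57 and from 62.4 and 58.02 TPM to 386 and 366 TPM in SPRET (difference 2.14), and it shares exons and reads with Ang, so these do not count as separate. On chromosome 1, from 190947646 to 191183333, Vash2, Batf3 and Atf3 had a larger response, and on chromosome 17, from 48232739 to 48312534, Trem1, Trem3 and Treml2 did. The run on chromosome 6, from 128778485 to 128984707, was mixed, with 3 genes larger and 2 smaller.

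The difference in response can lie in the basal level, in the level after IL-4, or in both. Over all genes tested, SPRET was called higher than C57 in 9.92% and lower in 8.88% under basal conditions, and in 10.0% and 8.54% at 6 hours. With a margin of 2-fold on each side, 57 of the 164 genes with a larger response diverged, with a strain difference under 2-fold before IL-4 and over it at 6 hours, and 42 converged, with the reverse. In 23 the difference widened, in 18 it narrowed, in 2 it changed sign and in 22 it was under 2-fold at both times. Of the 126 genes with a smaller response, 38 diverged, 32 converged, 19 widened, 24 narrowed, 1 changed sign and 12 were under 2-fold at both times. Irf4, Rnase2a, Ccl24 and Lipn diverged, Egr2, Atf3, Ccl9 and Gatm converged, and Mmp12 narrowed. All 42 converging genes with a larger response were lower in basal SPRET, as the arithmetic of the contrast requires.

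**Figure D3:**
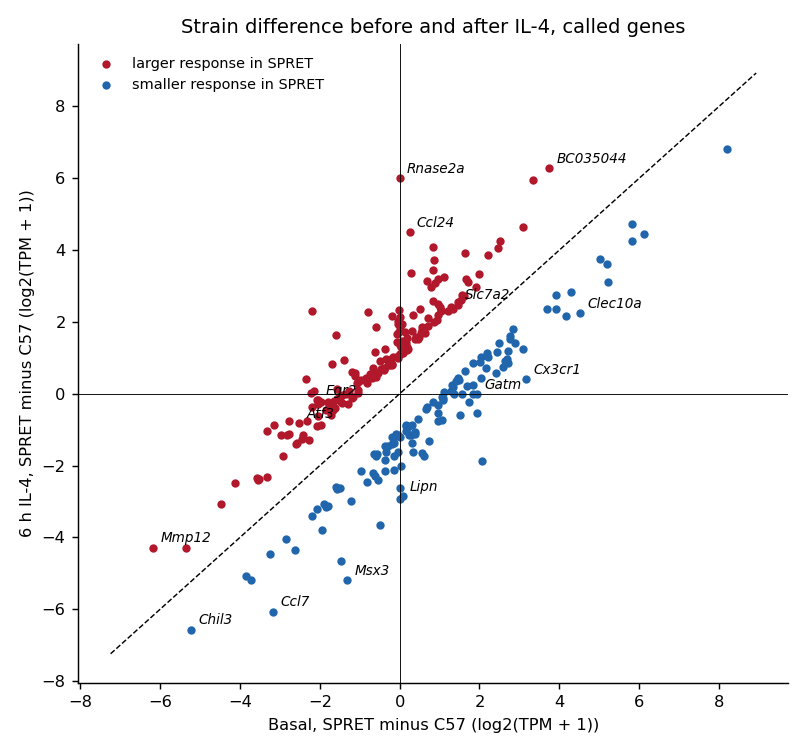
Each point is 1 of the 290 called genes, with SPRET minus C57 in log2(TPM + 1) under basal conditions on the horizontal and at 6 h of IL-4 on the vertical axis. Red points had a larger and blue points a smaller response in SPRET, and the dashed line marks a strain difference that IL-4 left as it was. Genes near the vertical zero line (Rnase2a, Ccl24, Lipn) differ mostly after IL-4, and genes near the horizontal zero line (Egr2, Gatm, Cx3cr1) mostly before it.

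The basal side was compared with libraries of another experiment. The 5-strain table holds 3 basal libraries each of C57 and SPRET, in which SPRET was lower than C57 in 9.52% of the genes tested and higher in 8.58% (limma, past 2-fold). Of the 164 genes, 156 were tested there, and 54 (34.6%) were lower in basal SPRET and 13 (8.33%) higher. Of the 117 genes with a smaller response that were tested there, 18 (15.4%) were lower and 41 (35.0%) higher. Among the converging genes, 26 of 41 with a larger response had a basal difference of the same sign past 2-fold in those libraries, but only 12 of 26 with a smaller response did. For Egr2 the basal difference was -2.25 there and -2.05 here, and for Atf3 -2.82 and -2.51. For Cebpa it was 0.0081 there and -1.06 here, and for Ddx60, named after its values were seen, -0.32 there and 1.74 here. For these last genes the class therefore depends on which basal libraries are used.

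The differences at 1 and 24 hours share the basal libraries of the 6 h contrast and are given side by side only. At 1 hour, 68 genes (0.563%) had a larger and 30 (0.248%) a smaller response in SPRET, and at 24 hours 373 (3.09%) and 379 (3.14%). Egr2 had differences of 1.81, 1.87 and 1.98 at 1, 6 and 24 hours, called at each. Irf4 had 1.00, 2.00 and 2.80, Cxcl3 1.85, 2.60 and 4.60, and Rnase2a 4.17, 6.00 and 5.65. Serpinb2 was highest early, with 55.2 and 47.9 TPM in SPRET at 1 hour, and had 3.00, 2.88 and 0.69. Arg1 had -0.54, 0.34 and 2.33, with the call only at 24 hours. Aqp9, a glycerol channel named after its values were seen, changed sign, with 1.96, 2.35 and -1.53, all called. Its SPRET level was 14.4 and 11.9 TPM at 6 hours and 9.63 and 9.26 TPM at 24 hours, while that of C57 was 1.84 and 1.74 TPM and 28.6 and 30.1 TPM. This change of sign was not seen in the 5-strain libraries at 24 hours, where the difference was 0.23 (limma, adjusted p = 0.29). There Aqp9 was 25.3 to 26.8 TPM in SPRET and 11.0 to 12.5 TPM in C57 after IL-4.

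In the other direction, Ch25h was alike in both strains at 1 hour, with 113 and 106 TPM in C57 and 136 and 125 TPM in SPRET, and parted later. Its values were -0.48, -2.06 and -3.04. Cx3cr1 had -0.25, -2.76 and -3.08, Chil3 -0.14, -1.34 and -4.08, and Lipn -0.72, -2.92 and -1.90. Chil3 reached 2034 and 2022 TPM in C57 at 24 hours against 3.22 and 1.4 TPM in SPRET. Hal, an enzyme of histidine breakdown named after its values were seen, had -0.28, -2.11 and 0.045, called at 6 hours alone.

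**Figure D4:**
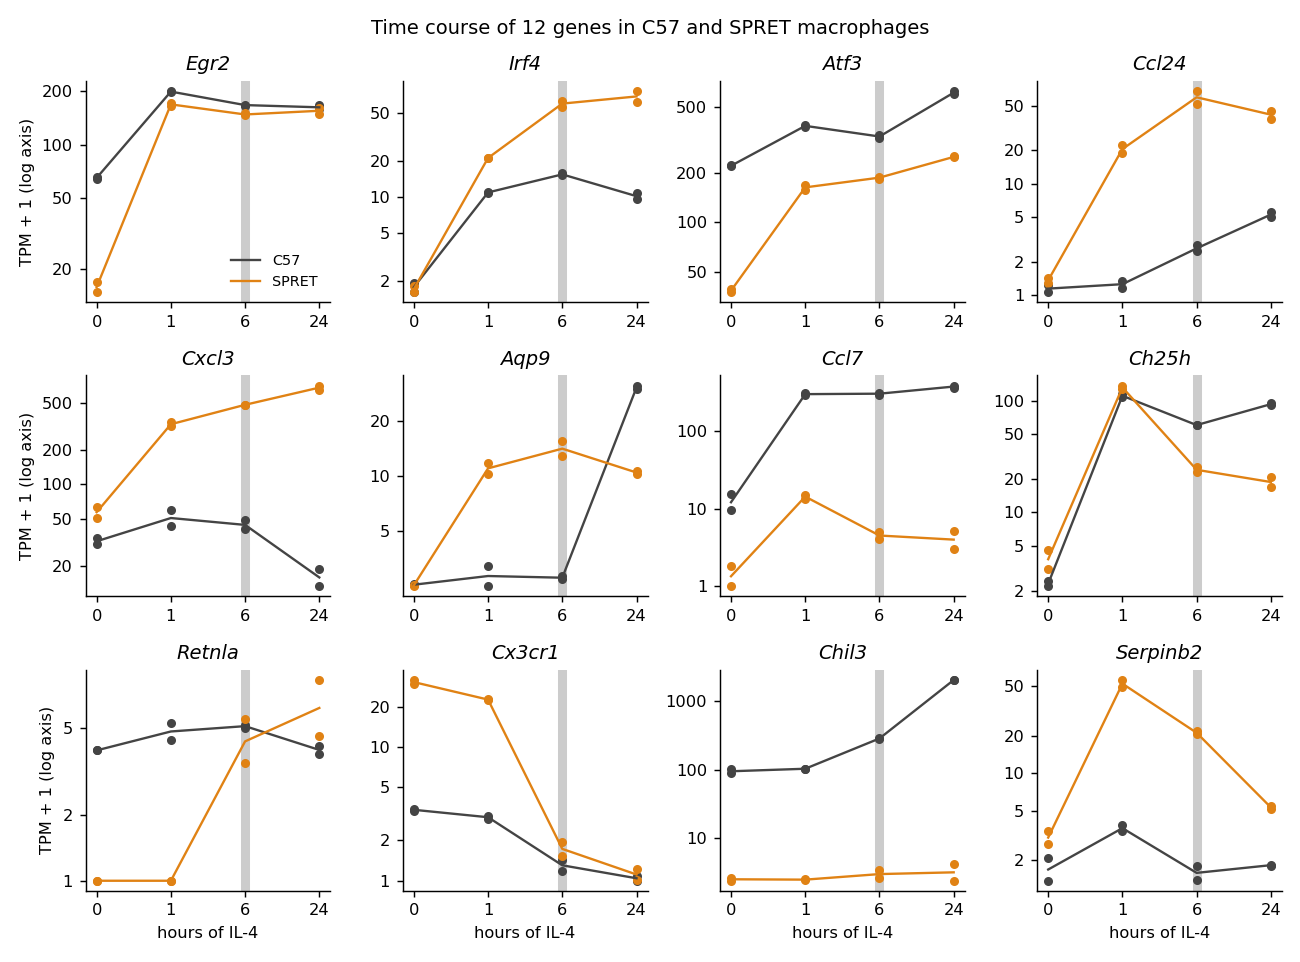
Each panel follows 1 gene over 0, 1, 6 and 24 h of IL-4, with TPM + 1 on a log axis, a point for each library, a line through the means of the log values, and C57 in grey and SPRET in orange. The hours are equally spaced and not to scale, and the grey band marks 6 h. The strains part by 1 h for Cxcl3 and come together by 1 h for Egr2, Retnla and Cx3cr1 move between 1 and 6 h, and Aqp9 crosses between 6 and 24 h.

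The difference was next read in other C57 and SPRET libraries. The 5-strain table holds 3 basal and 3 IL-4 libraries of each strain at 24 hours, a later time but with no library shared. There, 218 genes (1.83%) had a larger and 193 (1.62%) a smaller response in SPRET. Rescaling by median ratios changed these to 150 and 270. With the TPM as deposited, the median of all genes tested in both tables was 0.16. Of the 156 genes with a larger response at 6 hours that were tested there, 139 (89.1%) were above 0, against 70.3% of all genes tested in both tables, and 69 (44.2%) were called in the same direction. Of the 117 genes with a smaller response, 107 (91.5%) were below 0, against 29.7% of all genes, and 54 (46.2%) were called in the same direction. None of the 273 was called in the opposite direction. Taken relative to that median of 0.16, 132 of the 156 and 112 of the 117 had the direction seen at 6 hours, 59 and 62 were called in it, and 2 of the 156 were called in the opposite one.

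Rnase2a had 4.78 in these libraries, Cxcl3 5.01, Serpina3i 3.43, Serpinb2 3.17 and Cyp1b1 3.08, all called. Egr2 had 2.12 (adjusted p = 1.9e-12), and Ccl24 1.90 (adjusted p = 1.2e-07). Among genes with a smaller response, Msx3 had -3.28, Ccl7 -3.42, Clec10a -2.88 and Lipn -2.31, all called. Chil3 had -4.51, against -1.34 at 6 hours in the time course. The difference of other genes was not seen in these libraries. Cx3cr1 had 0.28 (adjusted p = 0.1), Ccr2 0.32 (0.051), Hal 0.014 (0.93) and Slc7a2 -0.57 (7.9e-05). Time and experiment cannot be told apart from the 5-strain values alone. In the time course, the difference at 24 hours was -3.08 for Cx3cr1, -1.71 for Ccr2 and 0.045 for Hal. The cause of these departures was not tested.

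**Figure D5:**
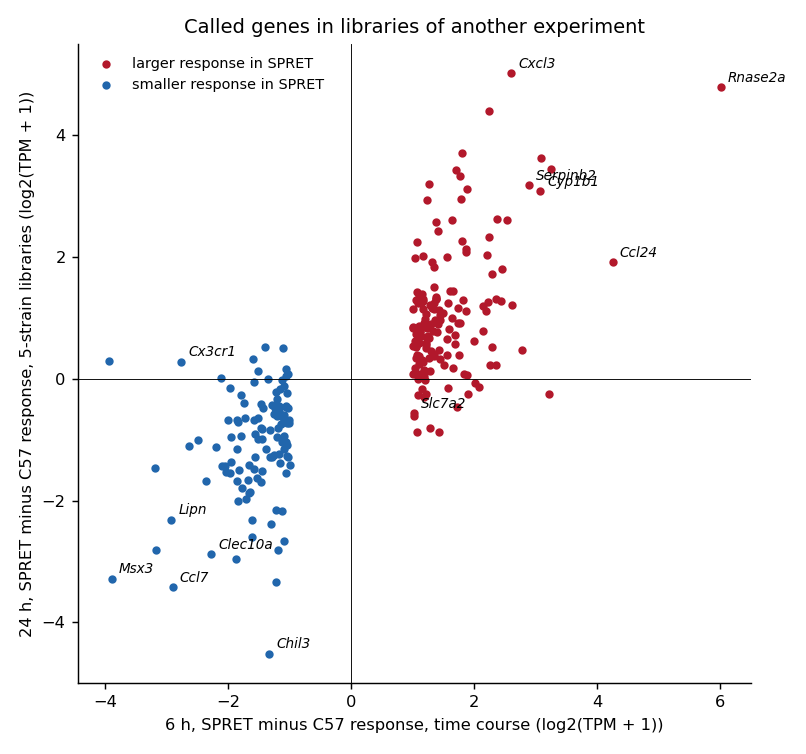
Each point is 1 of the 273 called genes that were tested in both tables, with SPRET minus C57 response in log2(TPM + 1) at 6 h in the time course on the horizontal axis and at 24 h in the 5-strain libraries on the vertical axis. Red points had a larger and blue points a smaller response at 6 h. Most red points lie above 0 and most blue points below, while Cx3cr1 and Slc7a2 are among those on the other side.

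The C57 side of the contrast was set beside BMDMs of Egr2 fl/fl mice, with 2 basal and 2 libraries at 6 hours of IL-4. These mice carry loxP sites at Egr2 and, unlike the LyzM-Cre Egr2 fl/fl mice of the series, no LyzM-Cre. Their strain background is not given in the sources used here. In them, 240 genes (1.99%) were induced and 105 (0.869%) repressed. Of the genes that C57 induced with a smaller response in SPRET, 39 were tested there, and 39 were above 0 and 32 (82.1%) called induced. Msx3 rose by 4.16 in these cells, Lipn by 2.80, Ccl7 by 4.49, Gpr65 by 1.59 and Clec10a by 2.75, against 4.01, 2.43, 4.64, 1.65 and 2.01 in C57. Of 91 genes that SPRET induced without a call in C57, 13 (14.3%) were called induced in Egr2 fl/fl cells and 73 were above 0. The share of all genes above 0 in these cells is not given here, so the counts above 0 have no value to stand beside. Among the 50 such repressed genes, 6 (12%) were called repressed. Cxcl3 had 0.68 (adjusted p = 0.12) and Ccl24 2.38 (adjusted p = 8.3e-05), against 1.20 in C57.

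In F1 C57 × SPRET BMDMs, the alleles of both strains share 1 nucleus. The deposited values weight expression by the reads that distinguish the alleles, at 24 hours only and with 2 libraries per condition, so they are given without a test. The SPRET allele response minus the C57 allele response on the log2(value + 1) scale was read for the 20 genes with the largest differences. Of these, 5 had no mean value of at least 1 on either allele at either time (Ccl12, Gm15056, Serpina3g, Serpina3i and Serpinb2) and were set aside, a choice made after their values were seen. It had the same sign as the 6 h difference in 12 of the other 15 and the opposite sign in 3, Ccl7, Cx3cr1 and Cxcl3. It was past 2-fold with the same sign in 5, Msx3 (-2.01), Ifi202b (2.17), BC035044 (1.78), Ccl22 (1.31) and Ccl24 (1.05). The value of Ifi202b rests on 1 library, since its SPRET allele was 1.82 and 54.2 at 24 hours. In 7 of the 15 the difference between the alleles was within 0.5 of 0. Rnase2a was listed at 0 on both alleles under basal conditions, and after IL-4 at 2315 and 2114 on the C57 allele and 2974 and 1885 on the SPRET allele. In the F1 cells both alleles of Rnase2a were thus raised to overlapping values. Egr2 likewise went from 62.1 and 54.9 to 227 and 241 on the C57 allele and from 78.5 and 74.4 to 277 and 288 on the SPRET allele (difference -0.11). Irf4 had 0.22, Cyp1b1 0.13 and Mmp12 0.12. Ccl9 and Chil3 had larger values, 1.48 and -1.71.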

How the data were processed

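The study's authors aligned polyA RNA-seq reads with STAR to each strain's own genome, moved them to mm10 with MMARGE, counted exon reads with HOMER and deposited 1 value per gene in TPM, a length-scaled share of each library's transcripts. TPM sums over the listed genes were 621610 to 654794 in the 8 libraries, and read counts per gene were not used here. The strand setting and the handling of multiply mapped reads are not given in the sources used here. For the F1 mice the authors deposited a score, TPM weighted by the share of allele-specific reads, whose depth is unknown. Columns of the authors' own DESeq2 fold changes and p-values were not used.

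The TPM of the 16 time-course libraries were taken to log2(TPM + 1) for the 12088 of 24537 genes that reached 1 TPM in 2 or more libraries. Group means were fitted in 1 limma (3.58.1) model with R 4.3.3, so that all 16 libraries shared the estimate of the spread, with a trended prior, and the difference in the 6 h response was an interaction contrast adjusted by Benjamini and Hochberg over all genes tested. A gene was called past 2-fold at an adjusted p under 0.05. Fold changes on this scale understate those of low genes. All p-values in the text are two-sided. The fit was also run on simulated data with normal noise and no other response to IL-4. It recovered 98% of 200 genes among 12088 changed by 2 on the log2 scale, with 4 false calls. The changed genes were drawn from those with a mean log2(TPM + 1) above 2. This run therefore does not cover changes in low genes or differences near the 2-fold threshold. Other tables were fitted in the same way, each alone. Library names were taken from the labels, and replicate libraries of a group had a Pearson correlation of log2 values between 0.988 and 0.992. Depth ran from 5.70 M to 17.8 M tags with a median of 13.9 M.

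The contrast, the gene lists and the rules were chosen with earlier results of these data known. Named genes were the 10 largest called differences in each direction with a group mean of at least 10 TPM and library-level responses that separate the strains (the smallest 6 h minus basal response of one above the largest of the other), leaving out microRNA and small nucleolar RNA genes. To these were added genes induced in one strain and repressed in the other, up to 6 called and the first 4 members of each list, and genes the study names. Cxcl1, Ccl17, Ccl9, Ppbp, Cxcl14, Cebpa, Il4i1, Clec7a, Rnase4, Zbtb46, Klrb1c and the other genes of the runs along chromosomes fall outside the rule and were chosen after their values were seen, as were those the text says so of. A few genes that the rule names are not reported here. Promoter letters and motifs come from RefSeq (GRCm38.p6), searched on both strands.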

Additional observations from a re-analysis of the deposited data

Results flagged for a closer look

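The 6 h response was called different between the strains, by limma's interaction contrast at the main settings, in each of the following genes. Some of these calls were lost under other settings described above, among them those of Fpr2, Egr1 and Ptgs2. The values are SPRET minus C57 on the log2 scale with no cause tested. Among secreted proteins and their receptors, the values were 4.25 for Ccl24, 2.45 for Ccl22, 2.60 for Cxcl3, 2.37 for Cxcl2, -3.18 for Ccl12, -2.90 for Ccl7, -2.76 for Cx3cr1, -1.64 for C5ar1, -1.60 for Ccr2, -1.17 for Fpr2, -2.36 for Gpr65 and 1.19 for Vegfa. Transcription factors and signalling genes had 2.00 for Irf4, 1.87 for Egr2, 1.69 for Batf3, 1.68 for Atf3, 1.18 for Irf1, 1.02 for Nfkbiz, 1.38 for Dusp4, 1.29 for Cdkn1a, -1.73 for Maf, -1.52 for Egr1, -1.88 for Fos, -1.21 for Fosl2, -3.89 for Msx3 and -2.20 for Arhgap24. Effectors of alternative activation and metabolism had 6.00 for Rnase2a, 2.26 for Itgax, 1.88 for Mmp12, 1.75 for Retnla, 1.02 for Slc7a2, 1.19 for Slc7a11, 3.07 for Cyp1b1, -2.28 for Clec10a, -2.06 for Ch25h, -1.34 for Chil3 and -2.92 for Lipn. The remaining genes had 3.24 for Serpina3i, -3.18 for Serpina3g, 2.88 for Serpinb2, 3.08 for Gm15056, 2.53 for BC035044, 2.61 for Ifi202b, 1.45 for Ifi47, 3.22 for Snora28, -2.49 for F630028O10Rik, -1.38 for Nlrp3, -1.13 for Hp, -1.0 for Ptgs2 and -1.26 for Cd80. No group held enough libraries to look for one far from the others.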

How the results depend on the processing

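No called difference among the named genes changed direction under any alternative run, while that of Arg1, not called, was 0.34 as reported and -0.49 with a pseudocount of 5 TPM. The alternatives were pseudocounts of 0.1 and 5 TPM, a 5 TPM filter and none, median-ratio and quantile scaling, other priors, a fit of the 8 libraries alone, a replicate block and leaving out each library. Of 122 named genes, 10 lost a call at 0.1 TPM, 14 at 5 TPM, at most 4 under another scaling, filter, prior, block or library set, and at most 8 without 1 library (SPRET basal replicate 1). The 5 TPM filter tested only 112 of these 122 genes, and those it left out are not counted as lost. The fit of the 8 libraries alone left 439 and 378 genes past the adjusted p at any size. With 5 TPM, 83 genes had a larger and 68 a smaller response in SPRET (77 and 62 of them shared with the calls reported), SPRET induced 204 and repressed 102 genes, C57 induced 109 and repressed 18, the 5-strain counts were 104 and 87, and Egr2 fl/fl cells induced 146 and repressed 32. With 0.1 TPM, 188 genes had a larger and 128 a smaller response in SPRET, 144 and 94 of them shared with the calls reported. At that pseudocount C57 repressed 132 genes, Egr2 fl/fl cells repressed 166, and the 5-strain counts were 425 and 296. Leaving out 1 library gave 154 to 184 larger and 113 to 138 smaller genes, where the lone library of a group is assumed to vary like the others. With a margin of 1.5-fold, 9 genes with a larger and 5 with a smaller response changed sign between the basal state and 6 h, and with the 5-strain basal libraries 5 and 4 did, and 17 genes with a smaller response converged. Replicate numbers were not shown to pair libraries, as deviations of the same number between basal and 6 h libraries correlated at -0.0481 in C57 and 0.0868 in SPRET, and at -0.143 to 0.266 over all pairs of times within a strain, and with the replicate number as a block 166 and 128 genes were called. The number of libraries per group, the depth and the missing counts limit what low genes can show.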
